A study of Mus musculus with 3 samples.

Results

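The Hox genes encode homeodomain transcription factors that lie in 4 clusters, HoxA, HoxB, HoxC and HoxD, and are numbered by paralogue group from 1 to 13 along each cluster. In the embryo the low groups are used towards the head and the high groups towards the tail, and in the adult mouse reproductive tract the high groups still mark position: Hoxa9 is known from the oviduct, Hoxa10 from the uterus, Hoxa11 from the uterus and cervix, and Hoxa13 from the cervix and vagina. The utero-tubular junction, where the uterus meets the oviduct and which sperm must pass to reach the egg, lies at the boundary between the oviduct and uterus territories. In mice without Hoxa10 the upper end of the uterus takes on an oviduct-like form.

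The members were taken as every probe on the array, control spots aside, whose gene name in the files begins with Hox followed by a cluster letter and a number. This gave 49 probes for 38 Hox genes, out of 41174 probes and 27670 gene names, and 11 of the genes had several probes. The RefSeq gene table holds 39 Hox genes, and Hoxc11 is not analysed here. HoxA lies on chromosome 6, HoxB on chromosome 11, HoxC on chromosome 15 and HoxD on chromosome 2.

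RNA of the utero-tubular junction came from adult CD-1 female mice, an outbred strain, all in estrus. The females had mated with a normal male, had mated with a vasectomized male, or had not mated. Each status was measured on 1 Agilent array labelled with Cy3, which held RNA pooled from 10 females. The comparisons therefore ask how the pools differ after mating with and without sperm in the ejaculate, and how long after mating the tissue was taken is not known here. With 1 array per status there is no spread between animals, no test was possible, and every difference below is a difference between 3 pools.

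A level is given as the log2 of a probe's processed signal relative to the 75th percentile of its own array, so that 0 is the 75th percentile. That percentile was 708 signal units for normal mated, 295 for vasectomized mated and 874 for not mated females. Differences are log2 ratios of these levels, and a gene is counted as higher or lower when they differ at least 2-fold. Levels of different probes were not set against each other. Probes printed 10 times had a median SD between spots of 0.0543 log2 units for normal mated, 0.0644 for vasectomized mated and 0.0573 for not mated females, which covers hybridisation and scanning only. Among genes with several probes well above background, probes of a gene disagreed by over 2-fold for 11.9% of 6302 genes in the ratio of normal mated to not mated and for 51.9% of 5822 genes in the ratio of vasectomized mated to not mated. Ratios that involve the vasectomized mated array, the dimmest of the 3, thus depend more on the probe.

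The tissue label was checked against its markers. Ovgp1, the oviductal glycoprotein, had 227821 signal units in normal mated and 107114 in vasectomized mated females, against 234120 in not mated females. All 7 markers of oviduct secretory epithelium, all 9 of ciliated epithelium, all 10 of smooth muscle and all 12 of stroma on the array were well above background on every array. Other lists were not detected in full. Of 6 uterine gland markers, 5 were above background in normal mated, 4 in vasectomized mated and 5 in not mated females. Of 11 ovary and oocyte markers, 10, 9 and 4 were above background on those arrays.

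Of the 38 Hox genes, 30 were well above background on at least 1 array, namely 30 in normal mated, 29 in vasectomized mated and 29 in not mated females. Detection stopped at paralogue group 11. All 9 genes of groups 9 to 11 were detected on at least 1 array, whereas none of the 2 genes of group 12 (Hoxc12 and Hoxd12) and none of the 4 genes of group 13 (Hoxa13, Hoxb13, Hoxc13 and Hoxd13) were well above background on any array. At the other end, Hoxb1 and Hoxd1 were below background on all arrays. All 20 genes of groups 2 to 8 were detected on at least 1 array. A signal below background is a limit of the probe and does not show that the RNA was absent.

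**Figure D1:**
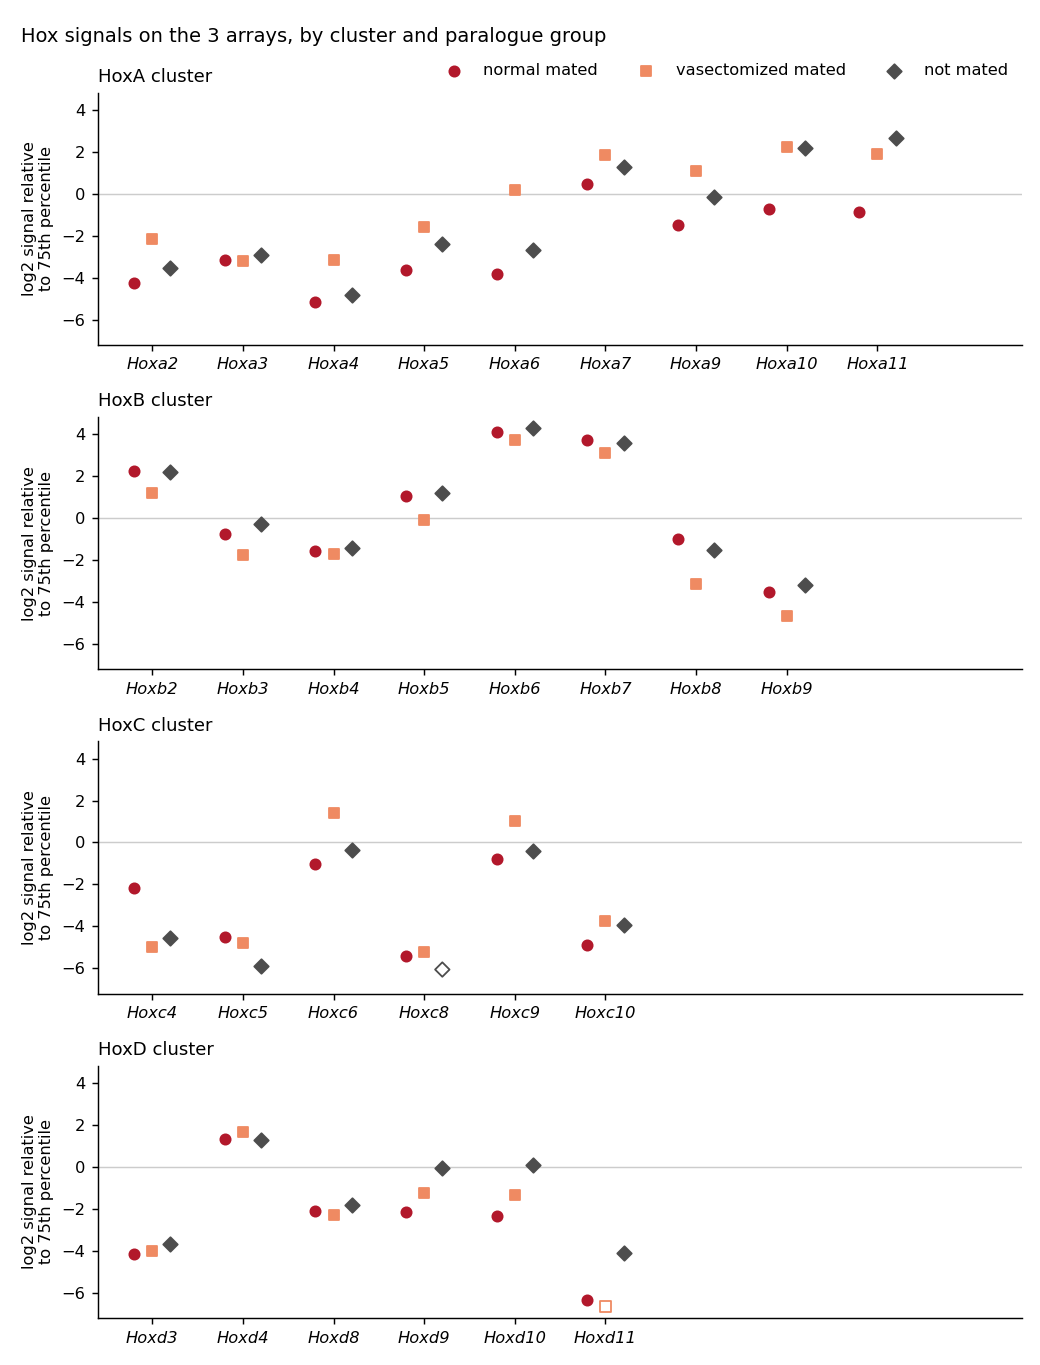
Log2 signal relative to the 75th percentile of the array (vertical axis) for 29 Hox genes above background on at least 1 array, by cluster and in order of paralogue group. Circles are normal mated, squares vasectomized mated and diamonds not mated, 1 array each, and open symbols are below background. Hoxa10, Hoxa11, Hoxd9, Hoxd10 and Hoxd11 have normal mated symbols over 2 log2 units under the not mated ones, while the HoxB ratios of those arrays lie between -0.44 and 0.54.

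After mating with a normal male, the Hox genes that were lower than without mating lay mostly at the high end of the numbering. Of 9 genes of groups 9 to 13 compared, 6 were at least 2-fold lower and none was higher, with a median log2 ratio of -2.09. Groups 5 to 8 had 2 lower and 1 higher of 11 (median -0.19), and groups 1 to 4 had none lower and 2 higher of 10 (median -0.17). Over all 30 Hox genes compared, 8 were lower and 3 higher, while among all 19304 genes compared 13.2% were lower and 9.81% higher, 23.0% in either direction. The median over the 30 Hox genes was -0.36 and that over all genes -0.05.

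The 6 lower genes of the high groups all lay in HoxA and HoxD. Hoxa11, needed in the mouse for uterine stroma and gland development, had a level of -0.87 in normal mated and 1.91 in vasectomized mated females, against 2.65 in not mated females. Its signals were 387, 1104 and 5470 units on those arrays. It was 11.5-fold lower after normal mating than without mating (log2 ratio -3.52), the largest in size among the Hox genes in that comparison. Hoxa10, which sets uterine identity and is required for decidualization, had levels of -0.70 in normal mated and 2.24 in vasectomized mated females, against 2.18 in not mated females, a 7.40-fold lower level after normal mating. For both genes the normal mated level was the lowest, and with spike-in scaling it was within 2-fold of the vasectomized mated level (log2 ratios of -0.52 for Hoxa11 and -0.69 for Hoxa10).

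Hoxd10 and Hoxd9, known from limb patterning and expressed along the mouse reproductive tract, also had their lowest level after normal mating with the 75th percentile scaling. Hoxd10 had a level of -2.35 in normal mated and -1.35 in vasectomized mated females, against 0.10 in not mated females, and was 5.46-fold lower after normal mating. The levels of Hoxd9 were -2.14 in normal mated and -1.23 in vasectomized mated females, against -0.05 in not mated females. It was 4.25-fold lower after normal mating, and its other probe, at -3.48, -3.10 and -1.16 on the same arrays, had a log2 ratio of -2.31. With spike-in scaling the vasectomized mated level was the lowest for both genes, with log2 ratios of normal mated to vasectomized mated of 1.26 for Hoxd10 and 1.35 for Hoxd9.

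Hoxd11, which acts with Hoxa11 in kidney and forearm development, was dim, with 8.74 signal units in normal mated and 2.94 in vasectomized mated females, against 50.3 in not mated females. Its level was -6.34 in normal mated females and below background in vasectomized mated females, against -4.12 in not mated females, and it was 4.67-fold lower after normal mating. Hoxa9, the group member tied to the oviduct and also a regulator of blood progenitors, had levels of -1.51 in normal mated and 1.08 in vasectomized mated females, against -0.15 in not mated females. It was 2.57-fold lower after normal mating. For Hoxa9 the vasectomized mated array was the highest with the scaling reported here, but not with spike-in scaling.

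The other 3 genes of the high groups were within 2-fold of not mated females after normal mating, all with ratios below 0. Hoxc10, which takes part in hindlimb and motor neuron patterning, had levels of -4.88 in normal mated and -3.76 in vasectomized mated females, against -3.94 in not mated females (log2 ratio -0.94 after normal mating). Hoxc9, a patterning gene of the thoracic spinal cord, had levels of -0.77 in normal mated and 1.00 in vasectomized mated females, against -0.39 in not mated females (log2 ratio -0.38). Hoxb9, which has roles in the mouse thoracic skeleton and mammary gland, had levels of -3.53 in normal mated and -4.65 in vasectomized mated females, against -3.21 in not mated females (log2 ratio -0.32). So all 6 genes of HoxA and HoxD in these groups were at least 2-fold lower (median -2.34), and the 3 genes of HoxB and HoxC were not.

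Within HoxA the log2 ratio of normal mated to not mated became more negative between Hoxa7 and Hoxa11, with -0.83 at Hoxa7, -1.36 at Hoxa9, -2.89 at Hoxa10 and -3.52 at Hoxa11. Hoxa2 to Hoxa6 followed no such order, with -0.70 at Hoxa2, -0.22 at Hoxa3, -0.33 at Hoxa4, -1.26 at Hoxa5 and -1.16 at Hoxa6. Within HoxD it changed between neighbours, with -0.29 at Hoxd8 and -2.09 at Hoxd9. Across the processing reported here and 6 alternatives to it, Hoxa11 ranged between -3.66 and -3.34, Hoxa10 between -3.02 and -2.76, Hoxd10 between -2.45 and -2.03, Hoxd9 between -2.20 and -1.74 and Hoxa9 between -1.36 and -1.20. Hoxd11 did not keep its call, with a ratio of -0.47 under normexp background correction, which adds an offset that compresses dim probes.

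The upstream sequences of the 5 genes with the largest negative ratios are shown because they lie close together in 2 clusters and were lower together. Each is the 250 bases before an annotated start, 5′ to 3′ on the gene's strand, from RefSeq on GRCm38.p6. Hoxa10 and Hoxa11 are on the minus strand, at chr6:52240855-52241104 (the upstream one of 2 annotated starts) and chr6:52245811-52246060. Hoxd9, Hoxd10 and Hoxd11 are on the plus strand, at chr2:74697513-74697762, chr2:74691641-74691890 and chr2:74679308-74679557. Capitals mark matches on either strand to TAATTA, the core bound by many homeodomains, and to TTTATG, the core bound by CDX and posterior HOX proteins, which may overlap.
Hoxa10: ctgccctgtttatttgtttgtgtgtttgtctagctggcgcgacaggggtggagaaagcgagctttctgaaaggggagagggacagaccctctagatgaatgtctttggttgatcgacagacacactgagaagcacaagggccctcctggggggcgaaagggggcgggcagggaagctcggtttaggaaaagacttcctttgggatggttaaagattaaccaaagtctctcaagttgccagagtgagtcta
Hoxa11: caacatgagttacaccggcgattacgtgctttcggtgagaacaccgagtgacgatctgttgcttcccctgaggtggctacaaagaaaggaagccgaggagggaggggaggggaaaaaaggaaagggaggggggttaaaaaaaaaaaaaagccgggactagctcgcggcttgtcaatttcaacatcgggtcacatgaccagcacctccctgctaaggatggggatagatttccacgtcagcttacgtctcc
Hoxd9: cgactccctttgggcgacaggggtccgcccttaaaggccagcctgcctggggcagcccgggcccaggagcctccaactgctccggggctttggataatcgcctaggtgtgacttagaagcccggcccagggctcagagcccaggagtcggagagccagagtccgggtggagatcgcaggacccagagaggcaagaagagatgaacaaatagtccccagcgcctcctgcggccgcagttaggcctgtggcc
Hoxd10: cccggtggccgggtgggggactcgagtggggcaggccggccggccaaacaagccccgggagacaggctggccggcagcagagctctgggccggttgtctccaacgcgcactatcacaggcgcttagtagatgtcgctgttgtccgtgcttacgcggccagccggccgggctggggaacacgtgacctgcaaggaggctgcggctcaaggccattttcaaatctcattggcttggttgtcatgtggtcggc
Hoxd11: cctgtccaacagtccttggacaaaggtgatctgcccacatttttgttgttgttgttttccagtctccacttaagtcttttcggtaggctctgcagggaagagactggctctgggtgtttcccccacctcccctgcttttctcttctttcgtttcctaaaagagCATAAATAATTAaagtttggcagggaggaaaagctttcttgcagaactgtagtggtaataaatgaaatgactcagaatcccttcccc

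Of these 5 stretches only that of Hoxd11 held either motif, with a match to each side by side. RefSeq upstream sequences were matched for 22 of the 38 Hox genes, 24 starts in all. TAATTA was found in 2 of the 24, both at Hoxd11, and in 4.84% of the 32851 stretches of all genes. TTTATG was found in 5 of the 24 (Hoxa7, Hoxb8, Hoxd3, Hoxd4 and Hoxd11) and in 10.8% of all. The full palindromic oestrogen response element was in none of the 24 and in 0.0639% of all, and the palindromic progesterone response element was in none of the 24 and in 0.387% of all. The median GC content was 58.6% over the 24 and 52.4% over all. These are letter matches in a fixed window and do not describe binding.

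The probes of these genes lie, in the mm7 build that the file headers name, at chr6:52195026-52195085 for Hoxa10, chr6:52205477-52205536 for Hoxa11, chr2:74543335-74543394 for Hoxd9, chr2:74537939-74537998 for Hoxd10 and chr2:74527687-74527746 for Hoxd11. No annotation of mm7 was used, so their place within the transcripts is not given. In RefSeq, Hoxd10 overlaps Hoxd11, and Hoxa11 overlaps the antisense transcript Hoxa11os. Hox genes that overlap another Hox gene number 10 of the 38.

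The middle groups were mixed after normal mating. In HoxA, Hoxa5, which directs lung development, had levels of -3.63 in normal mated and -1.57 in vasectomized mated females, against -2.37 in not mated females, and was 2.39-fold lower after normal mating. Hoxa6, its neighbour in the thoracic patterning groups, had levels of -3.85 in normal mated and 0.19 in vasectomized mated females, against -2.69 in not mated females, and was 2.23-fold lower. Neither call held under every alternative processing, with ratios up to -0.72 for Hoxa5 and -0.56 for Hoxa6. Hoxa7 had levels of 0.45 in normal mated and 1.85 in vasectomized mated females, against 1.28 in not mated females, within 2-fold (log2 ratio -0.83).

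HoxB genes were close to the not mated level after normal mating: none of 8 was 2-fold higher or lower, and the log2 ratios lay between -0.44 and 0.54. Hoxb6 and Hoxb7, genes of the thoracic groups, gave strong signals. Hoxb6 had levels of 4.09 in normal mated and 3.71 in vasectomized mated females, against 4.27 in not mated females. Hoxb7 had levels of 3.71 in normal mated and 3.09 in vasectomized mated females, against 3.58 in not mated females. Signals of Hoxb6 were 12023, 3844 and 16868 units on those arrays, so dimness does not limit it. Hoxb5 had levels of 1.05 in normal mated and -0.08 in vasectomized mated females, against 1.20 in not mated females.

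Hoxb8, which blocks differentiation of myeloid progenitors when kept on, had levels of -0.97 in normal mated and -3.13 in vasectomized mated females, against -1.52 in not mated females. Its log2 ratio after normal mating was 0.54, and that of its other probe -0.11. Hoxb4, which expands blood stem cells, had levels of -1.54 in normal mated and -1.69 in vasectomized mated females, against -1.43 in not mated females. Hoxb3 had levels of -0.74 in normal mated and -1.76 in vasectomized mated females, against -0.30 in not mated females. With the processing reported here the vasectomized mated level was the lowest of the 3 for all 8 HoxB genes. Under an alternative 4 of them had a log2 ratio to not mated females above 0, with 0.29 for Hoxb9 and 0.065 for Hoxb4 under normexp correction and 0.19 for Hoxb6 and 0.015 for Hoxb2 with the mean over probes.

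Hoxb2, a gene of the hindbrain, had levels of 2.24 in normal mated and 1.18 in vasectomized mated females, against 2.22 in not mated females. Another probe named Hoxb2 in the files lies on the opposite strand in the file headers' coordinates and behaved differently, with levels of -5.13 in normal mated and -2.94 in vasectomized mated females, against -4.01 in not mated females. Its value is not part of the gene's value.

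HoxC held 2 genes that were higher after normal mating. Hoxc4, a gene of the cervical region that is also used in lymphocytes, had levels of -2.16 in normal mated and -4.99 in vasectomized mated females, against -4.53 in not mated females. It was 5.18-fold higher after normal mating, and this call held under every alternative processing, at log2 ratios between 1.47 and 2.63. Hoxc5 had levels of -4.51 in normal mated and -4.79 in vasectomized mated females, against -5.87 in not mated females, 2.57-fold higher after normal mating. Hoxc5 gave at most 31.1 signal units on any array and did not keep its call under normexp correction.

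The remaining genes described here were counted as within 2-fold of not mated females after normal mating, Hoxc8 by a bound that leaves a larger ratio possible. Hoxc6, which has a role in the mouse mammary gland, had levels of -1.0 in normal mated and 1.42 in vasectomized mated females, against -0.36 in not mated females. Hoxc8 had levels of -5.41 in normal mated and -5.23 in vasectomized mated females and was below background in not mated females, so it was at least 1.55-fold higher after normal mating. Hoxd8 had levels of -2.11 in normal mated and -2.31 in vasectomized mated females, against -1.82 in not mated females. The gap between the arrays of mated females depended on the scaling, with log2 ratios of normal mated to vasectomized mated for Hoxc6 of -2.43 as reported and -0.17 with spike-ins, and for Hoxd8 of 0.19 and 2.45.

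In the low groups, Hoxd4 had levels of 1.33 in normal mated and 1.67 in vasectomized mated females, against 1.28 in not mated females. Hoxd3 had levels of -4.13 in normal mated and -4.01 in vasectomized mated females, against -3.66 in not mated females. Hoxa3, required for the thymus and parathyroid, had levels of -3.16 in normal mated and -3.21 in vasectomized mated females, against -2.94 in not mated females. These 3 genes differed little between the arrays with the scaling reported here. Spike-in scaling shifts every log2 ratio of vasectomized mated to not mated females by -2.58. It shifts every ratio of normal mated to vasectomized mated females by 2.26. With it the 3 genes do not stay within 2-fold in those comparisons. The other Hoxa3 probe was below background in normal mated females, at least 2.77-fold lower than in not mated females. Hoxa2, which sets the identity of the second branchial arch, had levels of -4.25 in normal mated and -2.18 in vasectomized mated females, against -3.55 in not mated females. Hoxa4 had levels of -5.16 in normal mated and -3.15 in vasectomized mated females, against -4.82 in not mated females. In Hoxa2 and Hoxa4 the vasectomized mated array was the highest of the 3 with the scaling reported here, but not with spike-in scaling.

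**Figure D2:**
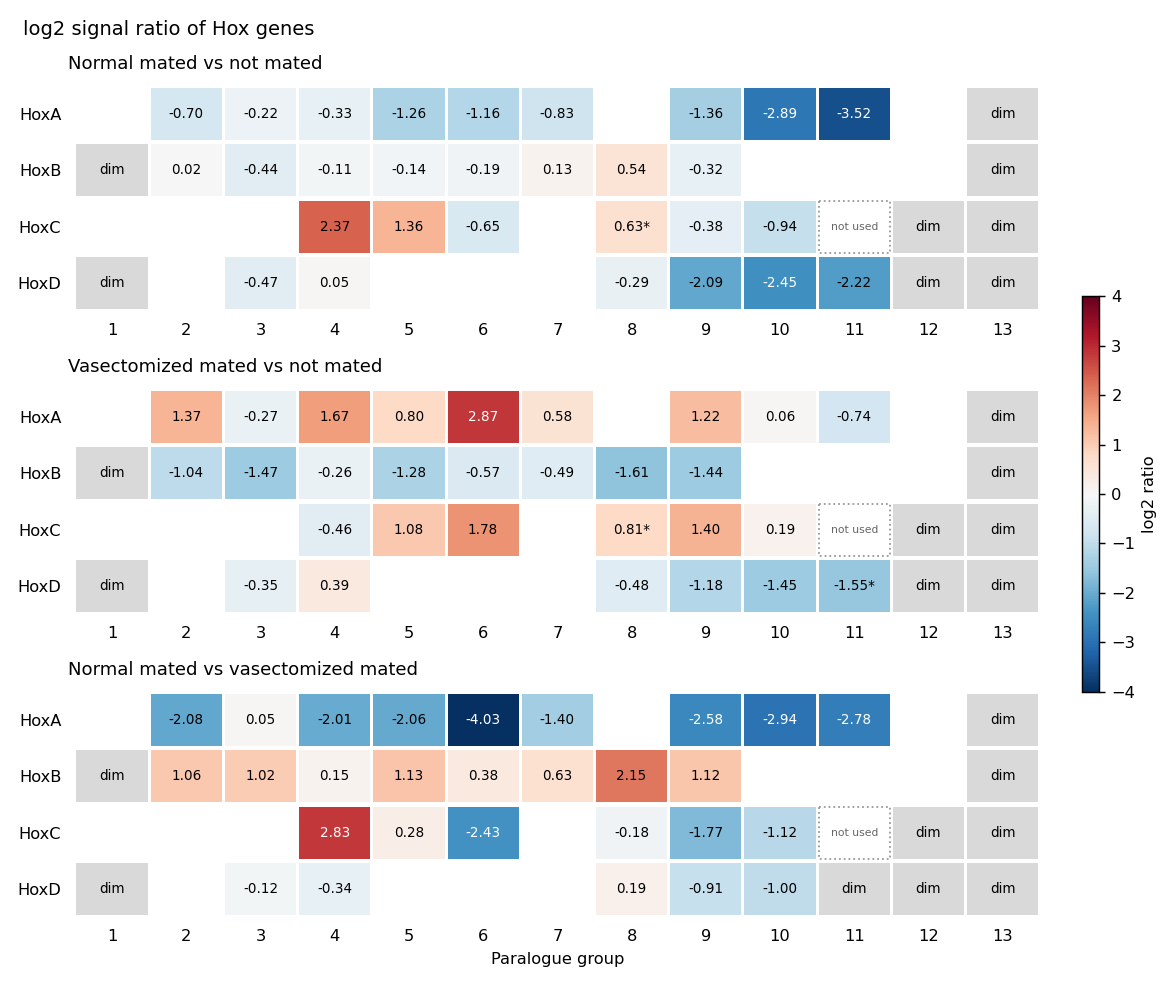
Log2 signal ratio of Hox genes (colour and number), with clusters in rows and paralogue groups from 1 to 13 in columns, for normal mated versus not mated, vasectomized mated versus not mated and normal mated versus vasectomized mated females, 1 array each. Dim marks genes with no ratio because of background, and an asterisk marks a bound. In the top grid the most negative values are in groups 9 to 11 of HoxA and HoxD; in the middle grid HoxA is mostly positive and HoxB negative, with spike-in scaling the positive HoxA values of the middle grid other than that of Hoxa6 turn negative, and most negative values of the bottom grid turn positive.

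After mating with a vasectomized male the genes that differed fell into HoxA and HoxC on the higher side and HoxB and HoxD on the lower side, as long as the arrays were scaled to their 75th percentile. HoxA had 5 of 10 genes at least 2-fold higher than without mating and none lower (median log2 ratio 1.01), and HoxB had none higher and 5 of 8 lower (median -1.16); with the arrays scaled to their spike-in controls, HoxA instead had none higher and 7 lower and HoxB 8 lower. Spike-in scaling lowered every ratio of vasectomized mated to not mated females by 2.58 log2 units and every ratio of normal mated to not mated females by 0.32. Over the 30 Hox genes compared, 8 were higher and 8 lower, while among all 19312 genes compared 25.8% were higher and 16.5% lower, 42.4% in either direction. The share of Hox genes called was 53.3%.

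Among HoxA genes higher after mating with a vasectomized male were Hoxa6 (7.33-fold), Hoxa4 (3.19-fold), Hoxa2 (2.59-fold) and Hoxa9 (2.34-fold), and Hoxa5 and Hoxa7 were within 2-fold at log2 ratios of 0.80 and 0.58. Hoxa10 was at the not mated level (log2 ratio 0.06) and Hoxa11 was 1.67-fold lower. In HoxC, Hoxc6 was 3.44-fold, Hoxc9 2.63-fold and Hoxc5 2.12-fold higher. All of these higher values change sign with spike-in scaling except that of Hoxa6, and so does that of Hoxa10.

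Lower after mating with a vasectomized male were Hoxb8 (3.05-fold), Hoxb3 (2.76-fold), Hoxb9 (2.72-fold), Hoxb5 (2.42-fold) and Hoxb2 (2.05-fold) in HoxB. Other probes of these genes differed: that of Hoxb9 had a log2 ratio of -0.39, that of Hoxb6 had 0.95 against -0.57 for the chosen probe, and the Hoxb2 probe on the opposite strand had 1.07. In HoxD, Hoxd10 was 2.73-fold, Hoxd9 2.26-fold and Hoxd11 at least 2.92-fold lower, and the other Hoxd9 probe had a log2 ratio of -1.93. Not all of these calls held under every alternative other than spike-in scaling. Log2 ratios reached -0.89 for Hoxd9, -0.63 for Hoxb8, 0.015 for Hoxb2 and 0.29 for Hoxb9. The remaining genes were counted as within 2-fold, from -0.57 at Hoxb6 and -0.49 at Hoxb7 to 0.39 at Hoxd4. Hoxc8 was counted there by a bound of at least 0.81, so its ratio may be larger. Hoxc8 did not stay within 2-fold under every alternative, with a ratio up to 1.28.

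**Figure D3:**
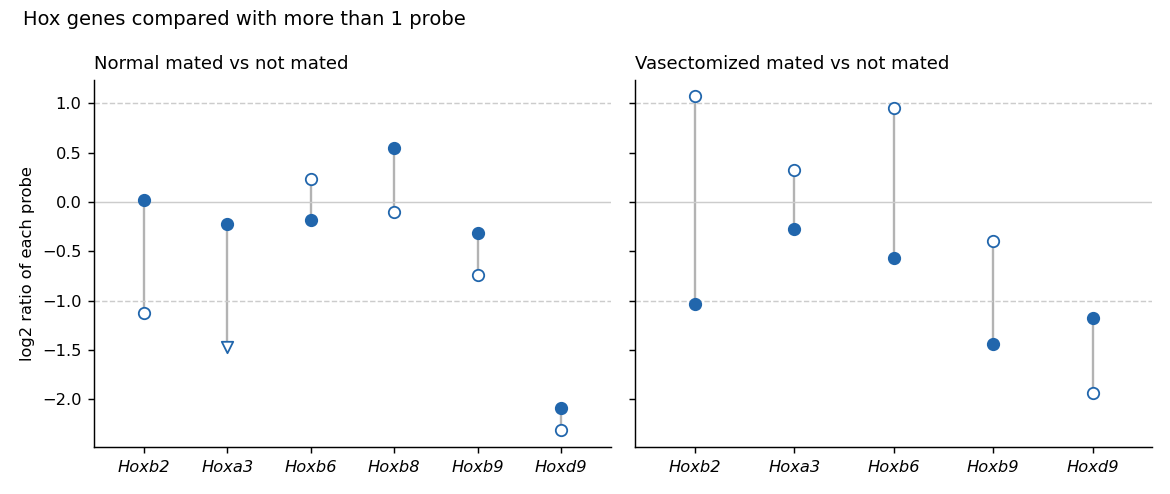
Log2 ratio of every probe (vertical axis) for Hox genes with more than 1 probe compared, for normal mated versus not mated (left) and vasectomized mated versus not mated (right). Filled symbols are the chosen probe, open symbols the other probe, a triangle is a bound, and dashed lines mark 2-fold. Both Hoxd9 probes lie under the lower line in both panels, while the Hoxb2 and Hoxb6 probes of the right panel lie on opposite sides of 0.

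Set beside each other, and sharing the not mated array, both kinds of mating had Hoxd9, Hoxd10 and Hoxd11 at least 2-fold lower and Hoxc5 at least 2-fold higher than no mating. Of these only Hoxd10 kept both calls under every alternative other than spike-in scaling. Hoxa5, Hoxa10 and Hoxa11 were lower after normal mating and within 2-fold after mating with a vasectomized male. Hoxa6 and Hoxa9 were lower after normal mating and higher after mating with a vasectomized male, but with spike-in scaling their ratios after mating with a vasectomized male were 0.29 and -1.36. Hoxa11 had ratios to not mated females of -3.52 after normal mating and -0.74 after mating with a vasectomized male, Hoxa10 of -2.89 and 0.06, and Hoxd10 of -2.45 and -1.45.

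Compared directly, normal mated females had 8 of 10 HoxA genes at least 2-fold lower than vasectomized mated females and none higher, and 5 of 8 HoxB genes higher and none lower; with spike-in scaling 1 HoxA gene was lower and 2 were higher, and 8 HoxB genes were higher. Over the 29 Hox genes compared, 12 were lower and 6 higher, against 28.0% lower and 14.7% higher among all 18990 genes (42.7% in either direction). Hoxa6 was 16.4-fold, Hoxa10 7.69-fold and Hoxa11 6.87-fold lower in normal mated than in vasectomized mated females, and Hoxa9 had a log2 ratio of -2.58. These 4 kept negative ratios with spike-in scaling, and only Hoxa6 was then past 2-fold. Hoxc4 was 7.13-fold and Hoxb8 4.45-fold higher in normal mated females, and under normexp correction their log2 ratios were 0.56 and 1.11, the first within 2-fold. In HoxD, Hoxd10 was 2.00-fold lower and Hoxd9 within 2-fold (log2 ratio -0.91).

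Cofactors and regulators of the Hox genes were read from lists of known genes. Their counts were made with the 75th percentile scaling only. Spike-in scaling lowers every log2 ratio after mating with a vasectomized male by 2.58. PBX, MEIS and PKNOX proteins bind DNA together with HOX proteins, geminin binds them, and CDX factors switch on Hox clusters. Of 11 such genes compared after normal mating, 2 were higher and 2 lower than without mating (median log2 ratio -0.30), against 9.81% higher and 13.2% lower among all genes. Pknox2 had 80.3 signal units in normal mated and 21.9 in vasectomized mated females, against 230 in not mated females, a log2 ratio of -1.22 after normal mating, while its other probe had -0.07. Gmnn, which encodes geminin, had a ratio of 1.28. Cdx2 was above background on the normal mated array only, at least 2.10-fold higher. After mating with a vasectomized male 2 of 10 were higher and 5 lower, against 25.8% and 16.5% of all genes.

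Polycomb proteins keep Hox clusters silent and trithorax proteins keep them active. After normal mating 3 of 18 were lower and none higher (median -0.28), a share lower near the 13.2% of all genes. The lower genes were the trithorax methyltransferases Kmt2d (-1.61) and Kmt2a (-1.22) and the Polycomb chromodomain gene Cbx7 (-1.26). Ezh2, the H3K27 methyltransferase, had a ratio of 0.49. After mating with a vasectomized male 2 of 18 were higher and 7 lower, against 25.8% and 16.5% of all genes.

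Genes reported as HOXA10 or HOXA11 targets in the uterus were mostly within 2-fold after normal mating, with 1 of 11 higher and 2 lower (median -0.65), against 9.81% and 13.2% of all genes. Igfbp1, a decidual secreted protein, had 10.8 signal units in normal mated females and was below background in vasectomized mated females, against 308 in not mated females (log2 ratio -4.53 after normal mating). Pgr, the progesterone receptor, had 56.5 signal units in normal mated and 30.2 in vasectomized mated females, against 228 in not mated females (-1.71). Cdkn1a, a cell cycle inhibitor that HOXA10 activates in myeloid cells, was higher after normal mating (2.82). Itgb3, an integrin subunit of the receptive uterus, had ratios of -0.86 and 0.85 at its 2 probes, which differ in sign. Emx2, which HOXA10 represses, had -0.65.

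Among other regulators of Mullerian duct patterning, 3 of 21 were higher and 6 lower after normal mating (median -0.63), against 9.81% and 13.2% of all genes. Hand2, a progesterone-dependent stromal factor, had a log2 ratio of -2.41, and the mesenchymal factor Tcf21 had -1.67. Wnt4 (1.83) and Foxa2, the gland factor (1.65), were higher. Of 17 retinoid genes, which set Hox expression in the embryo, 3 were higher and 5 lower after normal mating (median -0.12). Cyp26a1, which breaks down retinoic acid, had 644 signal units in normal mated and 142 in vasectomized mated females, against 12172 in not mated females (-3.94), and Aldh1a3, which makes it, had a ratio of 2.76. Crabp2, a binding protein for retinoic acid, had a ratio of -2.10. After mating with a vasectomized male 5 of 21 Mullerian genes were higher and 11 lower, and 6 of 17 retinoid genes were higher and 5 lower, against 25.8% higher and 16.5% lower among all genes.

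Markers of cell types differed between the arrays in the same comparisons. In whole tissue, fewer cells of a type and less RNA per cell cannot be told apart. In the adult mouse uterus Hoxa10 and Hoxa11 are known mainly from the stroma. After normal mating 6 of 12 stromal markers, 5 of 10 smooth muscle markers and 8 of 10 endothelial markers were lower than without mating and none was higher, with median log2 ratios of -1.09, -1.02 and -1.78. Of the epithelial markers 6 of 10 were higher (median 1.11) and of the ciliated markers 9 of 9 (median 1.93), and none was lower. Among all genes 13.2% were lower and 9.81% higher in that comparison. The summed level of the stromal markers, as multiples of the 75th percentile, was 268 in normal mated and 799 in vasectomized mated females, against 375 in not mated females. These sums were made with the 75th percentile scaling only, and that the vasectomized mated sum was the highest does not hold with spike-in scaling. Spike-in scaling lowers vasectomized mated levels by 2.58 log2 units relative to not mated females. The log2 ratios after normal mating were -3.52 for Hoxa11 and -2.89 for Hoxa10. The lowest in each marker list were Pdgfra (-1.94) for stroma, Synpo2 (-2.01) for smooth muscle and Pecam1 (-2.23) for endothelium. The part of cell composition in the Hox ratios was not tested.

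Markers at either end of the junction were also read. Of 7 markers of oviduct secretory epithelium, 2 were higher and 1 lower after normal mating (median 0.26), against 9.81% and 13.2% of all genes. Of 5 uterine gland markers compared, Foxa2, Sox9 and Cxcl15 were higher and the proteases Prss28 and Prss29 lower. Their summed level was 15.7 in normal mated and 15.9 in vasectomized mated females, against 142 in not mated females, where it came mostly from Prss28 (48761 signal units) and Prss29 (71864). Neutrophil markers were higher after normal mating for 9 of 10 (median 3.22). Of 9 ovary and oocyte markers, 4 were higher and 1 lower, against 9.81% and 13.2% of all genes. With the scaling reported here, 6 of those 9 were higher and none lower after mating with a vasectomized male than without mating (median 2.47). Likewise, 7 of 9 were lower in normal mated than in vasectomized mated females. Among all genes 25.8% were higher and 16.5% lower in the first comparison, and 14.7% higher and 28.0% lower in the second. Spike-in scaling shifts every log2 ratio by -2.58 in the first and by 2.26 in the second. Both counts were made with the scaling reported here only. In the first, the ratios of Cyp11a1 (at least 7.20), Oosp1 (at least 6.01), Zp3 (at least 3.69) and Gdf9 (3.64) exceed the shift. Those of Inha (2.47) and Cyp19a1 (at least 1.92) do not. In the second, the ratios of Cyp11a1 (-4.82), Oosp1 (-2.40) and Inha (-2.29) exceed the shift in size, and the others do not. None of the 5 adipocyte markers compared differed by 2-fold between normal mated and not mated females. The part of the dissection's position along the tract was not tested.

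**Figure D4:**
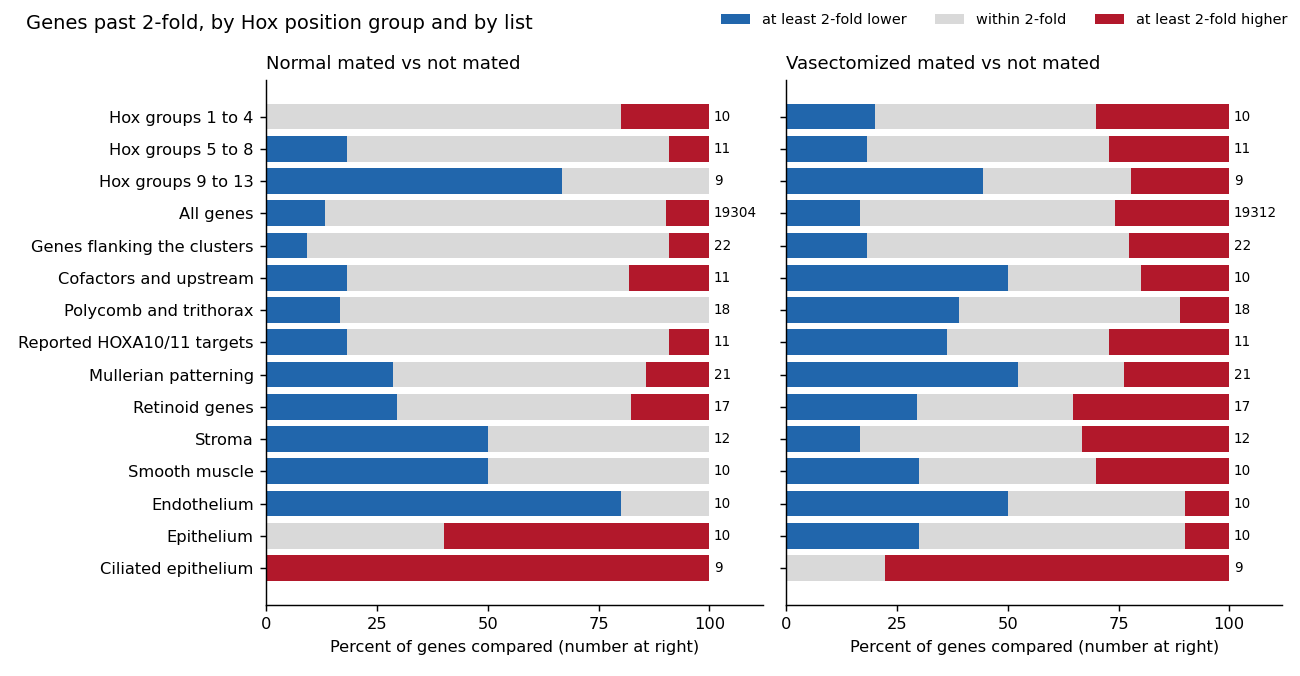
Percent of genes compared (horizontal axis) that were at least 2-fold lower (blue), within 2-fold (grey) and at least 2-fold higher (red) than in not mated females, for normal mated (left) and vasectomized mated (right) females, by Hox position group and by list, with the number compared at the right of each bar. After normal mating Hox groups 9 to 13 have 66.7% lower against 13.2% of all genes; in the right panel, scaling by spike-ins leaves 0 Hox genes higher.

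Genes next to the clusters were mostly within 2-fold after normal mating. Of 22 protein-coding neighbours compared, the nearest 3 on each side of each cluster, 2 were higher and 2 lower (median 0.25), near the 9.81% and 13.2% of all genes. Evx2, the homeobox gene beside Hoxd13, had a log2 ratio of 0.38, and Lnpk and Mtx2, on opposite sides of HoxD, had 0.07 and 0.30. The antisense transcript Hoxd3os1 inside HoxD had a ratio of 0.64 after normal mating and 2.76 after mating with a vasectomized male. Both are with the scaling reported here. Spike-in scaling shifts every log2 ratio by -0.32 in the first comparison and by -2.58 in the second. With it the second ratio of Hoxd3os1 is within 2-fold.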

How the data were processed

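Total RNA of 3 pools, each of 10 adult CD-1 females, was labelled with Cy3 and hybridised to 1 single-colour Agilent array per pool, per the labels. The deposited intensity values are linear processed signals of Agilent Feature Extraction (version 9.5.3 per the submitters' processing notes, 10.5.1.1 per the file headers), with the background subtracted array by array and without scaling to other arrays, per the file headers. The arrays carry the same slide scan. Spots flagged as outliers were left out, which touched 1 Hox probe (Hoxb1), and no spot was saturated. From 43379 spots that are not controls, 41174 probes were averaged over their spots. Between 65.9% and 70.7% of spots were well above background.

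The log2 levels were computed from the deposited intensities, minus the log2 of each array's 75th percentile. Each gene is represented by its brightest probe on average, taken where possible from those above background on some array. Where 1 of the arrays compared was not well above background the ratio is a bound against the lowest signal above background there, and where neither was, no ratio is given. Symbols came from the RefSeq table of GRCm38.p6 (22944 probes by accession, 6664 by symbol, 3108 by synonym, and 8458 kept the file's name).

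Hox genes above background on at least 1 array are named, apart from some items that are not reported here, and of each list up to 4 genes with the largest ratios plus markers that a result touches. Itgb3, Emx2, Ezh2, the genes next to the clusters and the upstream sequences shown were chosen after their values were seen. The members and lists were chosen with earlier results of these data known. The number of arrays limits the precision: there is no SE and no p-value. The way calls are made was checked on arrays simulated from the not mated array with noise between replicate spots alone. That check does not cover differences between animals, between probes of a gene or between scalings, and does not test the counts given. R 4.3.3 with limma 3.58.1 and the data.table package (version 1.17.8), and Python 3.11.15 with numpy 2.4.6, pandas 2.3.3 and matplotlib 3.10.9 were used. Alternatives were quantile and cyclic loess normalization, normexp background correction with an offset of 50, only probes above background on both arrays, no filter on dim probes, the mean over a gene's probes and, added after seeing the data, scaling to 9 spike-in probes.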

Additional observations from a re-analysis of the deposited data

How the results depend on the processing

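With 1 array per group no replicate could be left out, and the vasectomized mated array, whose probes disagreed most, enters only the comparisons that name it. No paired analysis was possible because each group has 1 array. Calls for single genes in the ratio of normal mated to not mated females held under each of the 6 alternatives other than spike-in scaling that gave the gene a value for 5 lower genes (Hoxa9, Hoxd9, Hoxa10, Hoxd10 and Hoxa11), 1 higher gene (Hoxc4) and all 19 genes within 2-fold. Hoxc8 there, and Hoxd11 and Hoxc8 in vasectomized mated versus not mated, had no value under 1 or more of them. The same held for 8 higher, 4 lower and 11 other genes of vasectomized mated versus not mated, and for 2 higher, 10 lower and 10 other genes of normal mated versus vasectomized mated. The cause of the differences below was not tested, except that fewer or more genes are compared when the filter changes.

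For normal mated versus not mated, the Hox median (-0.36) was -0.25 with cyclic loess, -0.18 with normexp, -0.67 with no filter, -0.50 with the mean over probes and -0.68 with spike-ins. Normexp gave 6 Hox genes past 2-fold, 5 lower and 1 higher, with 3 HoxA genes lower and 0 higher, and spike-ins gave 0 HoxA genes higher. Over all genes, the share of calls that were higher was 42.6% as reported, 52.9% with cyclic loess, 59.5% with normexp and 23.8% with spike-ins.

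For vasectomized mated versus not mated, the Hox median (-0.27) was -0.092 with cyclic loess and -2.85 with spike-ins, and changed sign to 0.43 with normexp, 0.38 with no filter and 0.040 with the mean over probes. Normexp gave 4 Hox genes lower, 1 of them in groups 9 to 13 and 3 in HoxB, the mean over probes gave 3 HoxB genes lower, and quantile normalization 1 HoxA gene lower. Spike-ins gave 25 Hox genes past 2-fold, 25 lower and 0 higher, with 9 lower in groups 9 to 13, 7 in HoxA (0 higher) and 8 in HoxB. The share of calls over all genes that were higher was 61.0% as reported, 77.1% with normexp and 1.5% with spike-ins. Among genes past 2-fold as reported, signs changed for Hoxb9 with normexp (0.29) and Hoxb2 with the mean over probes (0.015). Among genes within 2-fold, ratios below 0 as reported rose under an alternative to 0.91 for Hoxc4, 0.70 for Hoxd3 and 0.46 for Hoxa3. Those of Hoxb6, Hoxb4 and Hoxd8 rose to 0.19, 0.065 and 0.026, and that of Hoxa10 fell to -0.23. With spike-ins they changed for genes that included Hoxa2 (-1.21), Hoxa4 (-0.91), Hoxd4 (-2.19), Hoxa5 (-1.78), Hoxc5 (-1.50), Hoxc6 (-0.80), Hoxa7 (-2.01), Hoxa9 (-1.36), Hoxc9 (-1.19), Hoxa10 (-2.53) and Hoxc10 (-2.40).

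For normal mated versus vasectomized mated, the Hox median (-0.34) was -0.12 with cyclic loess, -0.85 with normexp, -1.04 with no filter and -0.65 with the mean over probes, and changed sign to 1.75 with spike-ins. Normexp gave 3 Hox genes higher, 3 of them in HoxB, as did the mean over probes in HoxB (3). With no filter 20 were lower, 12 of them in groups 9 to 13 and 2 in HoxB. Spike-ins gave 1 Hox gene lower and 20 higher, with 0 lower in groups 9 to 13, 1 lower and 2 higher in HoxA and 8 higher in HoxB. The share of calls over all genes that were higher was 34.4% as reported, 24.7% with normexp, 17.6% with no filter and 98.6% with spike-ins. Among genes past 2-fold as reported, signs changed for Hoxb9 with normexp (-0.37) and Hoxb2 with the mean over probes (-0.57). Among genes within 2-fold, ratios above 0 as reported fell under an alternative to -0.87 for Hoxa3 and -0.70 for Hoxc5. Those of Hoxd8, Hoxb6 and Hoxb4 fell to -0.21, -0.17 and -0.12, and those of Hoxc8 and Hoxd3 rose to 0.30 and 0.09. With spike-ins they changed for genes that included Hoxa2 (0.18), Hoxd3 (2.14), Hoxa4 (0.25), Hoxd4 (1.92), Hoxa5 (0.20), Hoxa7 (0.85), Hoxc8 (2.08), Hoxc9 (0.49), Hoxd9 (1.35), Hoxc10 (1.13) and Hoxd10 (1.26). The median over all genes with spike-ins was -0.39, -2.47 and 1.98 in the 3 comparisons, against -0.05, 0.18 and -0.27 as reported.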
